A study of Mus musculus with 6 samples.

Results

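The liver makes lipid-soluble compounds fit for excretion by attaching a charged group to them, and 3 large enzyme families carry out most of this conjugation. UDP-glucuronosyltransferases (Ugt genes) transfer glucuronic acid or another sugar from a UDP-sugar inside the endoplasmic reticulum, cytosolic sulfotransferases (Sult genes) transfer sulfate from the donor PAPS, and glutathione S-transferases (Gst genes) join glutathione to reactive electrophiles. The microsomal glutathione transferases (Mgst genes) are membrane proteins of another fold that use the same cofactor. Bilirubin, bile acids, steroids, thyroid hormone, catecholamines and many drugs leave the hepatocyte by these routes, and several members are known targets of the xenobiotic receptors CAR, PXR and AhR or of the stress factor NRF2.

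The members were all protein-coding genes of the deposited table whose symbol places them in the Ugt1, Ugt2 or Ugt3, the Sult, the Gst or the Mgst families. The rule used symbols alone and no expression value. It found 39 of 12366 genes: 13 Ugt, 7 Sult, 17 Gst and 2 Mgst genes. A further matching row, Gstm2-ps1, is not protein coding and was set aside.

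The data are RNA-seq profiles of liver from male C57BL/6 mice raised on chow to 22 weeks of age and then deprived of food for 48 h. One group was wild type (WT) and the other was Acss2-/- (Acss2-KO), with 3 libraries in each, and no fed group is analysed here. Acss2 encodes the enzyme that makes acetyl-CoA from acetate in the cytosol and nucleus, and the comparison asks how its loss changes liver transcripts in fasting. The labels do not say whether the knockout is restricted to a cell type or how the allele was made, and they do not tie libraries to animals, so the p-values reflect only how far these libraries vary, which may be technical.

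Levels are given in CPM, the reads of a gene per M reads of its library (M, 1e6). Estimated depth ran from 21.8 to 30.8 M reads per library. Acss2 itself stood at 74.0, 81.0 and 73.5 CPM in WT replicates 1 to 3 and at 1.37, 3.56 and 2.35 CPM in Acss2-KO replicates 1 to 3, so the labels and the targeted gene go together. The summed level of 6 hepatocyte markers was 79900 to 103000 CPM in WT and 94800 to 108000 CPM in Acss2-KO. Within this list Ttr (log2 fold change -1.80) and Serpina1c (-0.998) were called lower by the limma test used below, Tat (1.66) and Hpd (0.57) higher, and Alb and Apoa1 were not called. Among the Acss2-KO libraries, replicate 2 lay nearest to WT (Pearson r across genes 0.926 to 0.950, against 0.857 to 0.872 for replicate 1 and 0.894 to 0.911 for replicate 3). The summed level of 4 pancreatic enzyme genes reached 3240 CPM in WT replicate 2 and 588 CPM in Acss2-KO replicate 1, and was 14.3 CPM at its lowest.

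In the Acss2-KO livers the conjugating enzymes were mostly lower. Of 37 members with a mean of at least 5 CPM, 19 fell and 2 rose at an adjusted p below 0.05 (limma on log2(CPM + 1), Benjamini-Hochberg adjustment over all 9355 genes tested), and 16 did not pass. The share called lower was 51.4%, where 23.1% of all tested genes were called lower. The share called higher was 5.41%, where 13.4% of all tested genes were called higher. The median log2 fold change was -1.02 over the tested members and -0.12 over all tested genes. The test needed a mean of 5 CPM over all 6 libraries, and 6 of the 37 members reached it with 1 genotype below 5 CPM (Gsta2, Gstm5, Mgst3, Sult1e1, Sult5a1 and Ugt1a6a). Any call among these 6 is a description and carries no weight as a test. Of the other 31 members 16 fell, 1 rose and 14 did not pass. All 3 Acss2-KO libraries lay below all 3 WT libraries in 23 tested members (32.8% of all genes did so), and above them in 1 (20.1% of all genes). Over all genes the split was 2161 lower and 1252 higher, and it turned to 1681 lower and 1753 higher with median-of-ratios scaling, 1805 and 1656 with upper-quartile scaling, and 1624 and 1791 with quantile scaling. Those scalings moved the median of all genes from -0.12 to between -0.03 and 0.02, and the count of members called lower from 19 to 14 or 15.

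**Figure D1:**
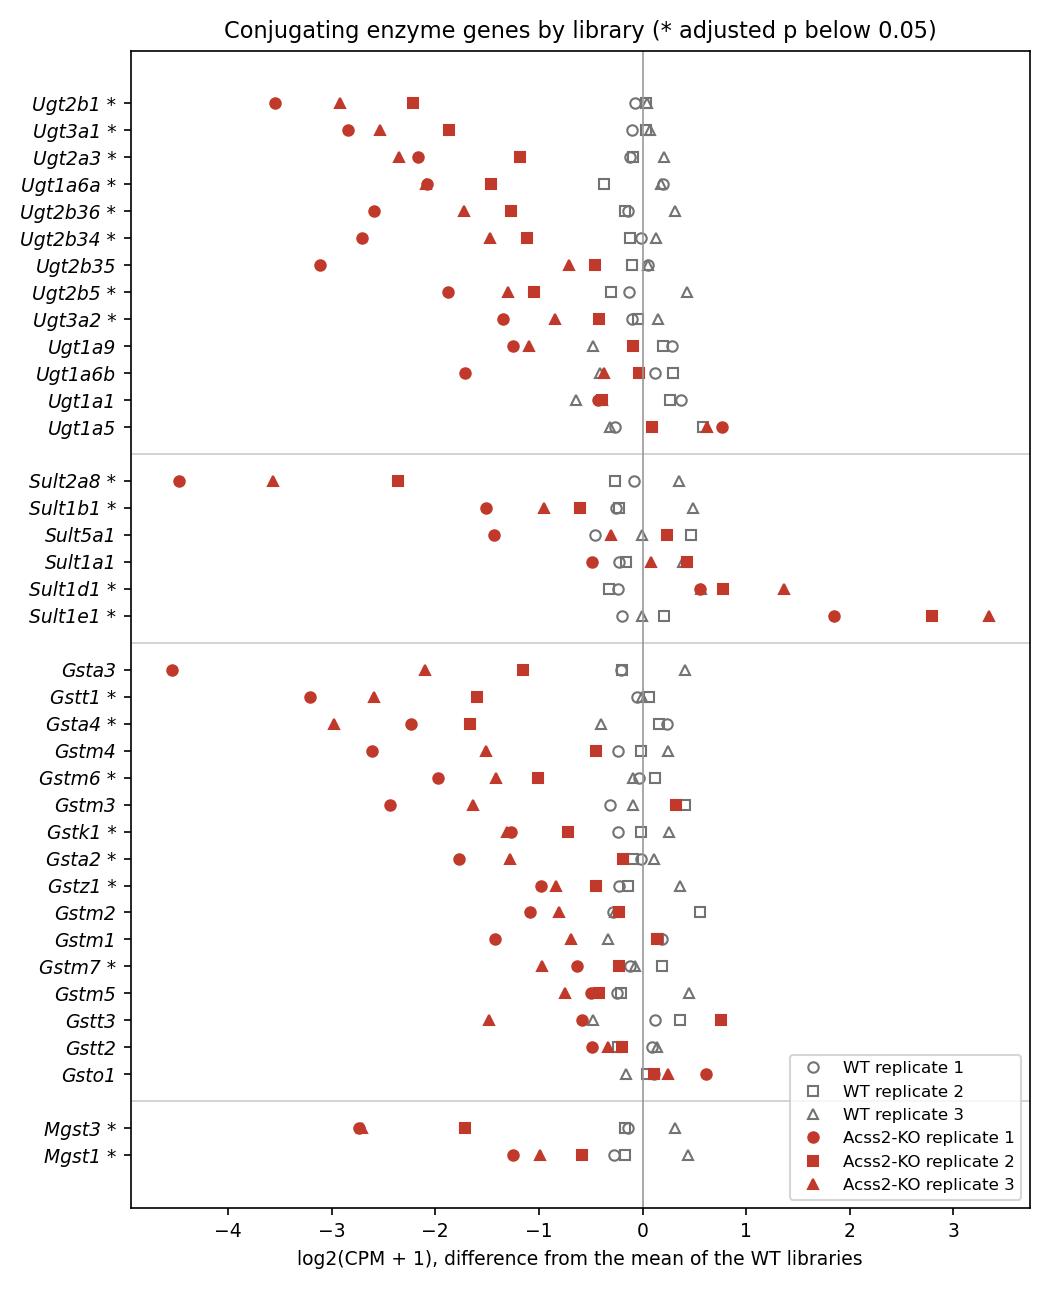
The 37 tested members by family, each library placed by its log2(CPM + 1) minus the mean of the WT libraries (grey open symbols, WT; red filled symbols, Acss2-KO; the shape gives the replicate; an asterisk marks an adjusted p below 0.05). Most red symbols lie to the left of 0, with Acss2-KO replicate 2 (squares) the highest Acss2-KO library in 33 of the 37 genes, and Sult1e1 and Sult1d1 lie to the right.

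The Acss2-KO libraries were not alike. Replicate 2 was the highest of the 3 Acss2-KO libraries in 33 of 37 tested members, against 35.9% of all tested genes. It was also the highest in all 19 members that were called lower, against 74.1% of all genes called lower. Replicate 1 was the lowest in 28 of 37 (75.7%), against 42.8% of all tested genes. Among genes called lower the shares were close, 73.7% of the members and 72.2% of all genes. The median log2 difference of the members from the WT mean was -1.51 in replicate 1, -0.45 in replicate 2 and -1.10 in replicate 3. Without replicate 2 the count of members called lower was 26, and without replicate 3 it was 13. The count over all tested genes moved too, from 2161 to 2381 without replicate 2 and to 1192 without replicate 3.

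Summed over their members, all 4 families took fewer reads in Acss2-KO. The Ugt genes together stood at 3443, 3322 and 4094 CPM in WT and at 850, 1841 and 1419 CPM in Acss2-KO, so that the Acss2-KO mean was 37.9% of the WT mean. The Gst sum went from 3786 ± 404 to 1805 ± 739 CPM (SD, n = 3; 47.7% of WT) and the Mgst sum from 3521 ± 999 to 1814 ± 426 CPM (51.5%). The Sult sum was 1479 ± 353 CPM in WT and 774 ± 235 CPM in Acss2-KO (52.3%). Single genes led these last sums: without Sult2a8 the Sult genes stood at 597 ± 158 CPM in WT and 681 ± 178 CPM in Acss2-KO, and Mgst1 held 99.4% of the Mgst reads in WT. In each family every Acss2-KO library lay below every WT library, which gives the smallest p that 3 against 3 allows (exact permutation test, two-sided, p = 0.1; 0.122 after adjustment over 11 family and subfamily sums). In tissue RNA such as this, fewer cells of a type and less RNA per cell cannot be told apart.

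**Figure D2:**
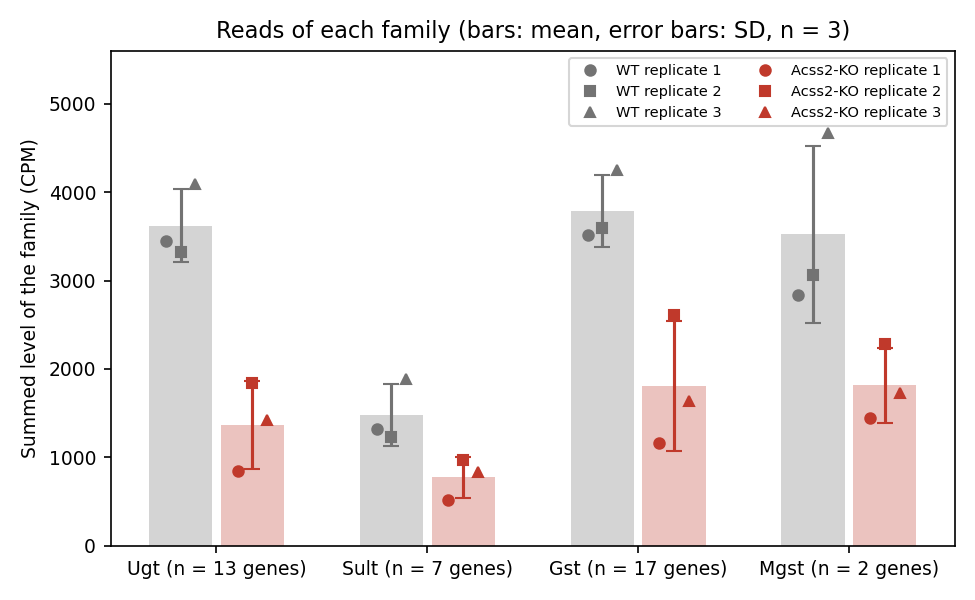
Summed level in CPM of all members of the Ugt, Sult, Gst and Mgst families in each library (points), with the mean as a bar and the SD as an error bar (n = 3; grey WT, red Acss2-KO). In all 4 families the 3 red points lie below the 3 grey points, and Acss2-KO replicate 2 is the highest red point.

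Of the 13 Ugt genes, all tested, 8 fell, 0 rose (0 also at an unadjusted p below 0.05, limma) and 5 did not pass. The share called lower was 61.5%, against 23.1% of all tested genes. The Ugt2 genes had the largest change among the Ugt subfamilies by median. UGT2 enzymes conjugate steroids, bile acids and many drugs. Of 6 genes 5 fell (83.3%), and all 6 were without overlap between the genotypes, where 32.8% of all genes lay lower without overlap. The median log2 fold change was -1.81, and the subfamily's reads were 32.5% of the WT level. Among the members, these 6 genes are followed by Sult1b1, Sult1d1 and Sult1e1 in a stretch of 701.8 kb on chromosome 5 (chr5:86889767-87591594, coordinates as deposited, which match GRCm38). The widest gap, between Ugt2b5 and Ugt2a3, was 184.7 kb, and genes other than members were not examined there. The bases just before the starts of the Ugt2 genes are shown because 5 of these 6 were called lower. They come from RefSeq (GRCm38.p6), 120 bases up to the start, 5′ to 3′ on the gene's strand. Capitals mark GTTAAT or GTTAAA read on either strand (TTTAAC is GTTAAA on the other strand), one arm of the palindrome bound by the liver factor HNF1 and a variant of it.
Ugt2b34 (chr5:86906938-86907057, minus strand): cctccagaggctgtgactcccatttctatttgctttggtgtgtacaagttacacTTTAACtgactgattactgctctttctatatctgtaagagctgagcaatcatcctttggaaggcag
Ugt2b1 (chr5:86926504-86926623, minus strand): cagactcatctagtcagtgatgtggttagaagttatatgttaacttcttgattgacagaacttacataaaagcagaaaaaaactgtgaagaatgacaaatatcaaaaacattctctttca
Ugt2b35 (chr5:87000740-87000859, plus strand): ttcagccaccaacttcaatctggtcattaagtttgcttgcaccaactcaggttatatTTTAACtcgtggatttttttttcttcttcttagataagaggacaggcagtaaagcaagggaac
Ugt2b36 (chr5:87092556-87092675, minus strand): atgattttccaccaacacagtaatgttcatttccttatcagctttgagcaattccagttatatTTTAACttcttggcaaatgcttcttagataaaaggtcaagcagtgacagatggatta
Ugt2b5 (chr5:87140341-87140460, minus strand): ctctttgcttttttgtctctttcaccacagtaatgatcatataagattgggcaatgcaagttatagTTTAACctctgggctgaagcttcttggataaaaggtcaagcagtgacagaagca
Ugt2a3 (chr5:87337196-87337315, minus strand): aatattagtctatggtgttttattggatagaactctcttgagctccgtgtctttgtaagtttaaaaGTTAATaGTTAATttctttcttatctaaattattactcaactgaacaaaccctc

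GTTAAA was found in the windows of Ugt2b34 (-66 to -61, counted back from -1 at the base before the RefSeq start), Ugt2b35 (-63 to -58), Ugt2b36 (-57 to -52) and Ugt2b5 (-54 to -49). Ugt2a3 held GTTAAT 2 times, at -54 to -49 and -47 to -42, and Ugt2b1 held neither word. The printed bases of Ugt2b1 do hold gttaac, which differs from GTTAAT and GTTAAA only in the last base and was not searched for. It stands between agttatat and ttcttg, the bases that also flank the marked word of Ugt2b36. Over 300-base windows (250 before to 50 after the start), GTTAAA was in 4 of the 6 Ugt2 genes and in 9.6% of 32851 RefSeq promoter windows. GTTAAT was in 1 of the 6 and in 7.1% of all windows. GTTAAA was added to the search after the sequences had been read, and these matches describe the letters only.

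Ugt2b1 fell most within the cluster. It stood at 263, 282 and 284 CPM in WT replicates 1 to 3 and at 22.8, 58.9 and 35.8 CPM in Acss2-KO replicates 1 to 3. Each Acss2-KO library was far below each WT library, and replicate 2 was the highest of them. The log2 fold change was -2.89 (SE 0.30, adjusted p = 0.000572, limma), and the mean in CPM was 7.06-fold lower.

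Of the cluster's other genes, 3 carried most of the reads assigned to Ugt genes: Ugt2b5 20.9%, Ugt2b36 20.02% and Ugt2b34 15.5% of the family's WT reads. Ugt2b36 stood at 648, 635 and 891 CPM in WT and at 118, 296 and 217 CPM in Acss2-KO (log2 fold change -1.86, SE 0.33, adjusted p = 0.00405). Ugt2b34 stood at 553, 516 and 613 CPM in WT and at 84.5, 258 and 201 CPM in Acss2-KO (-1.77, SE 0.37, adjusted p = 0.00816). The groups did not overlap in either gene, and replicate 1 was the lowest Acss2-KO library in both. Ugt2b5 went from 676, 601 and 996 CPM to 201, 357 and 300 CPM (-1.41, SE 0.28, adjusted p = 0.00638). It kept its share of the family's reads, 20.9% in both genotypes.

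Ugt2a3, whose product acts on bile acids, had 183, 186 and 231 CPM in WT and 43.4, 86.8 and 38.3 CPM in Acss2-KO. The 2 ranges lie apart, and the log2 fold change was -1.90 (SE 0.30, adjusted p = 0.00247, limma). Ugt2b35 was the 1 gene of the subfamily that did not pass, and its values are given for that reason, chosen after they were seen. They were 304, 273 and 304 CPM in WT and 33.1, 214 and 179 CPM in Acss2-KO, so that replicate 1 stood far below the other Acss2-KO libraries (log2 fold change -1.43, SE 0.70, adjusted p = 0.158). It was called in 0 of 16 alternative settings, and the authors' deposited table calls it lower.

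**Figure D3:**
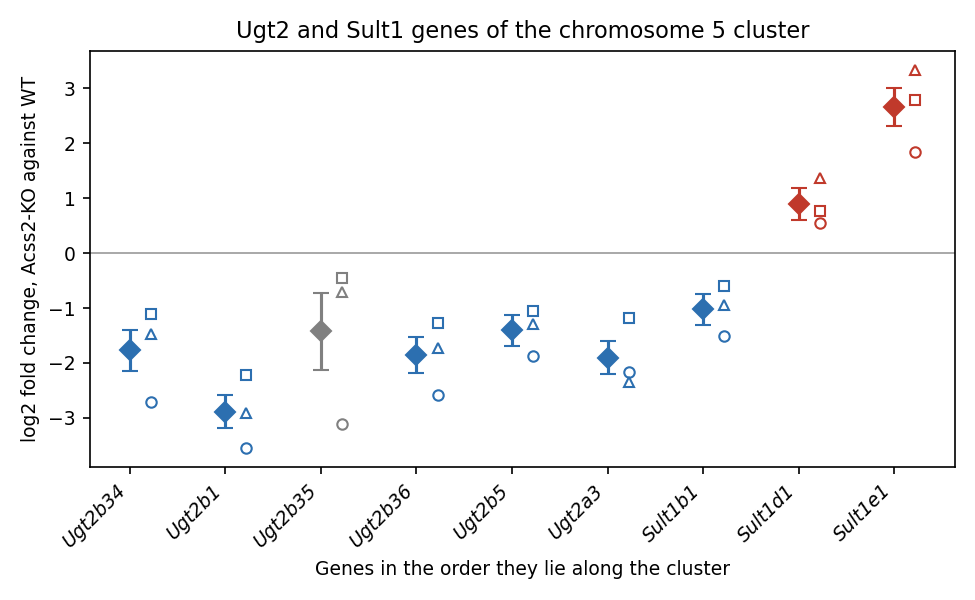
log2 fold change (Acss2-KO against WT) of the 9 genes of the chromosome 5 cluster in the order in which they lie (diamonds, estimate; bars, SE; open symbols, each Acss2-KO library minus the WT mean: circle, square and triangle for replicates 1, 2 and 3; blue called lower, red called higher, grey not called). The 6 Ugt2 genes and Sult1b1 lie below 0, and the last genes, Sult1d1 and Sult1e1, lie above 0.

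The Ugt3 genes encode enzymes known to use sugars other than glucuronic acid. Both members, next to each other on chromosome 15 (chr15:9273319-9370955), fell. Ugt3a1 had 77.7, 85.6 and 88.0 CPM in WT and 10.8, 22.2 and 13.6 CPM in Acss2-KO (log2 fold change -2.42, SE 0.24, adjusted p = 0.000476, limma). Ugt3a2 went from a mean of 465 ± 44.8 CPM to 262 ± 82.6 CPM (SD, n = 3; -0.87, SE 0.25, adjusted p = 0.0276), a call that was lost in 9 of 16 alternative settings. The log2 ratio of Ugt3a1 to Ugt3a2 was -2.46, -2.38 and -2.54 in WT and -3.96, -3.91 and -4.14 in Acss2-KO. The drop was therefore larger for Ugt3a1 in every Acss2-KO library, although the test over libraries could go no lower than p = 0.1 (exact permutation test, two-sided; 0.169 after adjustment over 22 pairs of neighbours). The pair share sequence: 20.1% of the 31-base words of Ugt3a1 transcripts also occur in Ugt3a2.

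Of the 5 Ugt1 genes 1 passed, a share below the 23.1% of all tested genes called lower. The Ugt1 genes share their 3′ exons and differ in the first exon. Of the 31-base words of each of the 5 members, 58.5% to 93.5% occur in another member. The division of reads among them is therefore uncertain. In sum the subfamily stood at 307, 296 and 171 CPM in WT and at 155, 202 and 178 CPM in Acss2-KO, with overlap between the groups (exact permutation test, two-sided, p = 0.3; 0.3 adjusted). Ugt1a6a, which conjugates small planar phenols, was the member that passed, with 10.8, 6.96 and 10.6 CPM in WT and 1.43, 2.73 and 1.42 CPM in Acss2-KO (log2 fold change -1.88, SE 0.26, adjusted p = 0.00148). Ugt1a6a averaged 1.86 CPM in Acss2-KO and reached the 5 CPM minimum only through WT. Its call is a description and carries no weight as a test. Its near copy Ugt1a6b was not called (-0.71, adjusted p = 0.231).

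Ugt1a1, the bilirubin-conjugating enzyme, had 204, 189 and 100 CPM in WT and 116, 119 and 119 CPM in Acss2-KO. WT replicate 3 lay below all Acss2-KO libraries, and the gene was not called (log2 fold change -0.40, SE 0.27, adjusted p = 0.257, limma), but it was called lower without that library (adjusted p = 0.0164). Ugt1a9 (-0.81, adjusted p = 0.0857) was not called either. Ugt1a5 had 4.66, 9.19 and 4.47 CPM in WT and 10.6, 6.28 and 9.51 CPM in Acss2-KO, overlapping ranges with an estimate above 0 (0.50, SE 0.29, adjusted p = 0.198). Ugt1a6a and Ugt1a1, on either side of it, had estimates below 0.

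The sulfotransferases changed in both directions. Of 6 tested Sult genes, Sult2a8 and Sult1b1 fell, Sult1e1 and Sult1d1 rose, and Sult1a1 and Sult5a1 did not pass. The shares called lower and higher were 33.3% each, against 23.1% and 13.4% of all tested genes. Sult2a8, a bile acid sulfotransferase of mouse liver, had 820, 719 and 1105 CPM in WT and 38.1, 168 and 72.5 CPM in Acss2-KO. The highest Acss2-KO library lay far below the lowest WT library. The log2 fold change of -3.47 (SE 0.49, adjusted p = 0.00271, limma) was the largest fall among the tested members, and the mean was 9.50-fold lower. Its share of the reads of the Sult family went from 59.6% to 12.0%.

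Sult1a1, the main phenol sulfotransferase, stood at 380, 399 and 584 CPM in WT and at 317, 600.5 and 471 CPM in Acss2-KO. The groups overlapped, and the log2 fold change was 0.01 (SE 0.28, adjusted p = 0.988). With the fall of Sult2a8 its share of the family's reads was 30.7% in WT and 59.9% in Acss2-KO. Divided by transcript length, Sult2a8 ranked 5 of 39 members in WT and 15 in Acss2-KO, and Sult1a1 ranked 8 and 3.

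The Sult1 genes close the chromosome 5 cluster, and within it the direction turned. Their RefSeq promoter sequences (GRCm38.p6) are shown because adjacent genes of 1 subfamily went opposite ways: 250 bases up to the start, 5′ to 3′ on the gene's strand, with AGGTCA, the hexamer bound by many nuclear receptors, in capitals when present on either strand (TGACCT is its reverse complement).
Sult1b1 (chr5:87538196-87538445, minus strand): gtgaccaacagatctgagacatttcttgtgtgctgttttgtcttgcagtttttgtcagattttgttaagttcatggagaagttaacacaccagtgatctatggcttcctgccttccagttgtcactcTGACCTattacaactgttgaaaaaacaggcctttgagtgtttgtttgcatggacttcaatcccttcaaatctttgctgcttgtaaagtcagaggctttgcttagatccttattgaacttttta
Sult1d1 (chr5:87569007-87569256, minus strand): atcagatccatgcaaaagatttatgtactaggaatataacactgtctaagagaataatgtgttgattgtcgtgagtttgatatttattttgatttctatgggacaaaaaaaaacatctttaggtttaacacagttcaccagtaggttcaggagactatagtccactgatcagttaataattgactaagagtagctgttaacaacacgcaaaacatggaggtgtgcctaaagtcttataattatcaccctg
Sult1e1 (chr5:87591612-87591861, minus strand): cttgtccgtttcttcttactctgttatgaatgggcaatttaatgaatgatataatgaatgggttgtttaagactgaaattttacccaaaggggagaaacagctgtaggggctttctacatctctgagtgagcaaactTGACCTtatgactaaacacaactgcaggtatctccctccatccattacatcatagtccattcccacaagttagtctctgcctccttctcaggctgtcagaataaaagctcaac

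The hexamer stood at -123 to -118 of Sult1b1, which fell and which held it a second time at 39 to 44 after the start (outside the bases shown), and at -113 to -108 of Sult1e1, which rose, and it was not in the window of Sult1d1, which rose. Of all RefSeq windows 16.3% held it, and of the 35 members with a window 7 did.

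Sult1e1, the estrogen sulfotransferase, is known to be low in healthy mouse liver. It was listed at 0 in WT replicate 1 (below 1 CPM), stood at 1.66 and 1.28 CPM in WT replicates 2 and 3, and reached 7.26, 14.9 and 22.3 CPM in Acss2-KO replicates 1 to 3. Every Acss2-KO library was above every WT library. The log2 fold change was 2.66 (SE 0.35, adjusted p = 0.00129, limma). The gene was high enough to be tested only through the Acss2-KO libraries, so this call is a description and carries no weight as a test. The estimate was 1.58 with a pseudocount of 5 and 2.96 with 0.5, and 3.07 without Acss2-KO replicate 1, the lowest of its group.

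Sult1d1, which sulfates catecholamines, had 80.5, 75.6 and 141.0 CPM in WT and 140.1, 163 and 247 CPM in Acss2-KO. The ranges touch: WT replicate 3 was just above Acss2-KO replicate 1. The log2 fold change was 0.90 (SE 0.30, adjusted p = 0.0417, limma), and leaving out either of WT replicates 1 and 2, or Acss2-KO replicate 3, ended the call (adjusted p up to 0.157). Sult1b1, a sulfotransferase of thyroid hormone and phenols, had 22.9, 23.4 and 39.1 CPM in WT and 9.06, 17.9 and 13.8 CPM in Acss2-KO. These did not overlap (-1.02, SE 0.28, adjusted p = 0.0221), and leaving out WT replicate 3, or either of Acss2-KO replicates 1 and 3, ended the call (adjusted p up to 0.0791).

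The gene bodies of Sult1b1 and Sult1d1 lie 16.4 kb apart. The log2 ratio of Sult1b1 to Sult1d1 was -1.77, -1.65 and -1.82 in WT and -3.81, -3.12 and -4.07 in Acss2-KO. It was lower in every Acss2-KO library than in any WT library (exact permutation test, two-sided, p = 0.1, the smallest possible; 0.169 adjusted over 22 pairs). This smallest p was reached by 13 of the 22 pairs. Sult1c2, a phenol sulfotransferase on chromosome 17, was below the level needed for the test: it stood at 7.62, 6.73 and 6.54 CPM in WT and was listed at 0 in all 3 Acss2-KO libraries. No fold or test is given against a group listed at 0, and these values were picked after they were seen. Sult5a1 was not called (-0.50, adjusted p = 0.381).

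Among the Gst genes 7 of 16 tested fell, 0 rose (0 also at an unadjusted p below 0.05, limma) and 9 did not pass. The share called lower was 43.8%, against 23.1% of all tested genes. The median log2 fold change was -0.92. The count depends on the libraries: it was 4 when any WT library or Acss2-KO replicate 3 was left out, and 13 when Acss2-KO replicate 2 was. It was also 4 with median-of-ratios, upper-quartile or quantile scaling. Genes called lower over the whole table varied with the library left out as well, against 2161 with none left out. They numbered 1361, 1417 and 2006 without WT replicates 1, 2 and 3, and 1192 and 2381 without Acss2-KO replicates 3 and 2.

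Gstt1, a theta-class enzyme that acts on small halogenated compounds, had the lowest estimate among the Gst genes that passed, on the log2(CPM + 1) scale. It had 239, 260 and 247 CPM in WT and 26.0, 81.6 and 40.5 CPM in Acss2-KO, far apart, with replicate 2 the highest (log2 fold change -2.46, SE 0.36, adjusted p = 0.00223, limma). Gsta4 was close to it: its ratio of mean CPM was 5.18-fold lower against 5.04-fold for Gstt1, and without Acss2-KO replicate 1 its log2 fold change was -2.32 against -2.09. The neighbours of Gstt1 on chromosome 10 (chr10:75774115-75834881), Gstt3 and Gstt2, were not called (-0.44, adjusted p = 0.577, and -0.34, adjusted p = 0.174). The log2 ratio of Gstt1 to Gstt2 was 0.58, 1.02 and 0.59 in WT and -1.99, -0.66 and -1.53 in Acss2-KO. All WT values were above 0 and all Acss2-KO values below it (exact permutation test, two-sided, p = 0.1, the smallest possible; 0.169 adjusted). Of 22 pairs of neighbours 13 reached this p. Gstt1 and Gstt2 both had estimates below 0, so the pair lies outside the rule for neighbours and was picked with its values known.

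In the alpha class, all 3 members were without overlap between the genotypes, and 2 passed. Over all tested genes 32.8% lay lower without overlap and 23.1% were called lower. Gsta4, which clears the lipid peroxidation product 4-hydroxynonenal, had 43.1, 40.8 and 27.3 CPM in WT and 6.92, 10.8 and 3.76 CPM in Acss2-KO (log2 fold change -2.29, SE 0.33, adjusted p = 0.00188). Gsta2 had 7.67, 7.26 and 8.46 CPM in WT and 1.57, 6.73 and 2.62 CPM in Acss2-KO (-1.08, SE 0.36, adjusted p = 0.0442). It averaged 3.64 CPM in Acss2-KO and was tested only through WT, so the call is a description without weight as a test. Its Acss2-KO replicate 2 was close to WT, and the call was lost in 10 of 15 alternative settings.

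Gsta3, known in mice for detoxifying the epoxide of aflatoxin, held 34.0% of the Gst reads in WT and 16.9% in Acss2-KO. It had 1090.0, 1097 and 1675 CPM in WT and 53.1, 568 and 294 CPM in Acss2-KO. All Acss2-KO libraries lay below WT but far apart from each other, and the gene did not pass (log2 fold change -2.60, SE 0.89, adjusted p = 0.0690). It was called when either of Acss2-KO replicates 1 and 2 was left out (smallest adjusted p over all settings 0.00122), and the authors' deposited table calls it lower.

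The mu-class genes form a row of 7 on chromosome 3 (chr3:107895821-108044894). All 7 had estimates below 0, 4 were without overlap, and 2 passed, Gstm6 and Gstm7. The share that passed was 28.6%, near the 23.1% of all tested genes called lower. Of all genes 32.8% lay lower without overlap. Gstm6 had 30.1, 33.6 and 28.8 CPM in WT and 7.06, 14.8 and 10.9 CPM in Acss2-KO, with no overlap (log2 fold change -1.47, SE 0.24, adjusted p = 0.00319, limma). Gstm7 lay at the threshold (-0.61, SE 0.21, adjusted p = 0.0497) and lost its call in 13 of 16 alternative settings.

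Gstm1, the most abundant mu-class gene per kb of transcript, had 849, 826 and 592 CPM in WT and 278, 820 and 461 CPM in Acss2-KO. Acss2-KO replicate 2 lay among the WT libraries, and the gene was not called (-0.66, SE 0.37, adjusted p = 0.185). The other mu-class genes without a call were Gstm4 (-1.53, adjusted p = 0.0543), Gstm5 (-0.55, adjusted p = 0.0885), Gstm2 (-0.71, adjusted p = 0.0850) and Gstm3 (-1.25, adjusted p = 0.220). Without Acss2-KO replicate 2, Gstm1, Gstm2, Gstm3 and Gstm4 were all called lower (adjusted p 0.0180, 0.0233, 0.00107 and 0.00130), and Gstm5 was not. Transcripts of Gstm1 and Gstm3 share 16.2% and 21.9% of their 31-base words with other members, so reads of this class may be divided imprecisely.

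The remaining soluble classes have 1 member each in the table. Gstk1, the mitochondrial and peroxisomal kappa enzyme, had 107, 125 and 151 CPM in WT and 52.0, 76.6 and 50.6 CPM in Acss2-KO, with no overlap (log2 fold change -1.10, SE 0.22, adjusted p = 0.00639, limma). Gstz1, which isomerises maleylacetoacetate in tyrosine breakdown, had 719, 760.1 and 1082 CPM in WT and 425, 613 and 471 CPM in Acss2-KO (-0.76, SE 0.24, adjusted p = 0.0368). The highest Acss2-KO library was below the lowest WT library, but the call was lost in 9 of 16 alternative settings, each scaling among them. Gsto1, an omega-class enzyme with reductase activity, was not called (0.32, adjusted p = 0.207). Gstcd, with means of 3.44 ± 0.315 CPM in WT and 4.52 ± 1.09 CPM in Acss2-KO (SD, n = 3), was too low to be tested.

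Both Mgst genes fell. Mgst3, known for peroxidase activity and leukotriene conjugation, had 19.3, 18.9 and 26.7 CPM in WT and 2.35, 5.82 and 2.43 CPM in Acss2-KO (log2 fold change -2.39, SE 0.29, adjusted p = 0.000965, limma). It averaged 3.53 CPM in Acss2-KO and reached the 5 CPM minimum only through WT. Its call is a description and carries no weight as a test. Mgst1, an enzyme of the endoplasmic reticulum and the outer mitochondrial membrane, was the member with the highest level per kb of transcript in both genotypes. It had 2817, 3040.0 and 4640.0 CPM in WT and 1438, 2272 and 1722 CPM in Acss2-KO. The groups did not overlap (-0.94, SE 0.27, adjusted p = 0.0253), but the call was lost in 7 of 16 alternative settings, among them when any of WT replicates 2 and 3 and Acss2-KO replicates 1 and 3 was left out (adjusted p up to 0.0935).

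The authors' deposited table calls 19 of the 39 members lower (14.7% of all its genes) and 2 higher (12.5%) at its adjusted p below 0.05. It shares 15 of its 19 lower calls with the limma fit, and both higher calls. Gsta3, Gstm4, Ugt2b35 and Sult1c2 are lower in the authors' deposited table alone, while Gstm7, Gstz1, Mgst1 and Ugt3a2 passed the limma test alone.

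The genes that supply the donor molecules were examined next. Of 5 genes of UDP-glucuronate supply, 2 fell (40.0%, where 23.1% of all tested genes were called lower). Slc35b4, a carrier of UDP-sugars, went from 27.0 ± 4.82 to 6.87 ± 3.89 CPM (SD, n = 3; log2 fold change -1.92, adjusted p = 0.00320, limma), and Ugp2, which makes UDP-glucose, from 532 ± 84.0 to 198 ± 55.5 CPM (-1.45, adjusted p = 0.00408). Ugdh, which oxidises it to UDP-glucuronic acid and was picked here after its values were seen, had 144.0, 143.0 and 176 CPM in WT and 29.9, 170.1 and 111 CPM in Acss2-KO and was not called (-0.88, adjusted p = 0.291).

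For sulfation, 3 of 7 genes of PAPS supply and use fell (42.9%, against 23.1% of all tested genes). They were the sulfate carrier Slc26a1 (-1.28, adjusted p = 0.00826), the PAPS carrier Slc35b2 (-0.74, adjusted p = 0.00881) and the sulfite oxidase Suox (-1.05, adjusted p = 0.0257). The PAPS synthase Papss2 was not called (-0.20, adjusted p = 0.605) and was also picked after its values were seen. Over all tested genes 23.1% were called lower and 13.4% higher. Of 12 genes of glutathione supply and turnover, 6 fell and 2 rose. Those with the smallest p were Chac2, which degrades glutathione (-2.71, adjusted p = 0.000267), the peroxidase Gpx1 (1699 ± 20.3 to 679 ± 175 CPM, SD, n = 3; -1.35, adjusted p = 0.00336) and the glyoxalase Hagh (-1.18, adjusted p = 0.00419). Chac2 averaged 13.8 CPM in WT and 1.24 CPM in Acss2-KO, where replicates 1 and 3 were listed at 0. It was tested only through WT, so its call is a description and carries no weight as a test. The 2 that rose, named after their values were seen, were 5-oxoprolinase, Oplah (1.00, adjusted p = 0.0129), and glutathione reductase, Gsr (0.71, adjusted p = 0.0166).

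Of 10 tested conjugating enzymes of other families 5 fell and 1 rose, where 23.1% of all tested genes were called lower and 13.4% higher. Inmt, an N-methyltransferase of indoleamines, went from 431, 296 and 232 CPM in WT to 10.8, 9.19 and 4.03 CPM in Acss2-KO (log2 fold change -5.20, SE 0.35, adjusted p = 0.000158, limma). The histamine methyltransferase Hnmt (-2.12, adjusted p = 0.00117) and the glycine acyltransferase Glyat (-1.57, adjusted p = 0.00638) also fell. Hnmt averaged 4.58 CPM in Acss2-KO and was tested only through WT, so its call is a description. The nicotinamide methyltransferase Nnmt rose (1.70, adjusted p = 0.00751) and was named after its values were seen.

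Of 5 genes of conjugate export 4 fell (80.0%, against 23.1% of all tested genes). They were Rdx, which anchors transporters at the bile canaliculus (-0.84, adjusted p = 0.00572), the exporter Abcg2 (-1.02, adjusted p = 0.0108), Abcc6 (-0.65, adjusted p = 0.0368) and, named after its values were seen, the canalicular conjugate pump Abcc2 (-0.95, adjusted p = 0.0457).

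**Figure D4:**
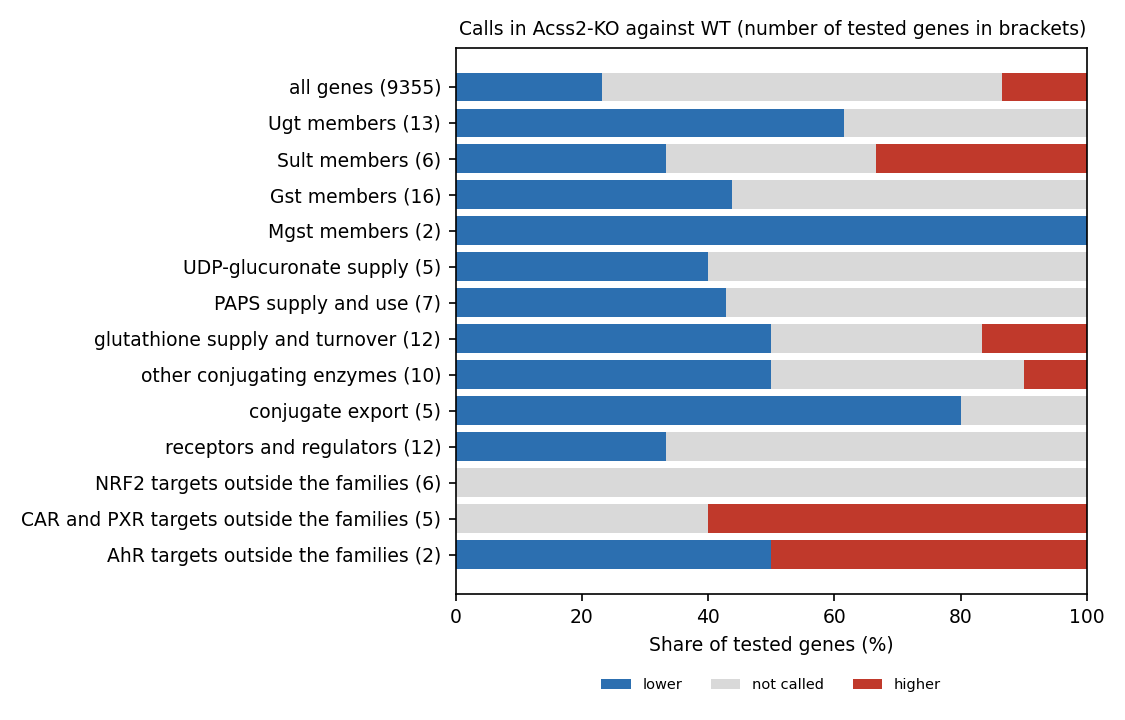
Percent of tested genes called lower (blue), not called (grey) or called higher (red) in Acss2-KO against WT at an adjusted p below 0.05, for all genes, the 4 families and the pathway lists, with the number of tested genes in brackets. Blue takes 23.1% of all genes and 61.5% of the Ugt genes, and the CAR and PXR target list has red and no blue. Cyp2b10, counted in that red, was high enough to be tested only through the Acss2-KO libraries.

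The receptors and their targets outside the families did not move in 1 direction. Of 12 receptors and regulators 4 fell (33.3%, against 23.1% of all tested genes). They were the aryl hydrocarbon receptor Ahr (-1.40, adjusted p = 0.00430, limma), Ppara (-1.07, adjusted p = 0.00932), the bile acid receptor Nr1h4 (-0.95, adjusted p = 0.0180) and, named after its values were seen, CAR (Nr1i3, -0.64, adjusted p = 0.0424). Among 5 tested CAR and PXR targets 3 rose. Cyp2b10, the textbook CAR target, had 1.01, 1.495 and 2.45 CPM in WT and 100.4, 20.5 and 95.7 CPM in Acss2-KO (4.53, SE 0.63, adjusted p = 0.00416). With a WT mean of 1.65 CPM it was high enough to be tested only through the Acss2-KO libraries. Its call is a description and carries no weight as a test. Por (1.48, adjusted p = 0.00439) and Slco1a4 (0.86, adjusted p = 0.0114) rose too. Cyp3a11, the textbook PXR target, named after its values were seen, did not pass (-2.93, adjusted p = 0.0790).

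Both tested AhR targets changed, in opposite directions. Cyp1a2, also a pericentral gene, had 491, 440 and 260 CPM in WT and 8.52, 35.5 and 14.0 CPM in Acss2-KO (log2 fold change -4.47, adjusted p = 0.00153, limma), and Tiparp rose (1.73, adjusted p = 0.0103). None of 6 NRF2 targets was called. Of these Ces1g had -2.71 (adjusted p = 0.0736), Hmox1 0.75 (adjusted p = 0.0824) and Nqo1 -0.80 (adjusted p = 0.166), and 2 of the 6, Ces1g and Hmox1, had an unadjusted p below 0.05.

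Marker genes of the liver zones moved with these results. For comparison, 23.1% of all tested genes were called lower and 13.4% higher. Of 9 tested pericentral hepatocyte markers 8 fell and none rose, and their summed level was 14900 to 20500 CPM in WT and 6770 to 10600 CPM in Acss2-KO. Lgr5 was listed at 0 in Acss2-KO replicates 1 and 3. Of 11 periportal markers 7 rose and 1 fell, with sums of 10300 to 12500 CPM in WT and 22500 to 29200 CPM in Acss2-KO. Of 7 tested Kupffer cell and macrophage markers 3 fell, with sums of 167 to 498 CPM in WT and 64.5 to 133 CPM in Acss2-KO, and Timd4 was listed at 0 in Acss2-KO replicate 1. Of 6 endothelial markers 1 fell and 1 rose (191 to 304 CPM and 216 to 295 CPM), and of 5 stellate markers 1 fell (242 to 364 CPM and 220 to 379 CPM). The biliary markers Krt19, Krt7 and Epcam have no row in the table used here, and of the 2 others 1 rose and 1 fell. The macrophage marker Adgre1 (mean 4.04 CPM in Acss2-KO) and Lrat, the stellate marker that fell (4.64 CPM), were tested only through WT. Sox9, the biliary marker that rose (mean 3.22 CPM in WT), was tested only through Acss2-KO. The calls of Adgre1, Lrat and Sox9 are descriptions and carry no weight as tests. The part of these markers in the changes of the conjugating enzymes was not tested.

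Without the pair of libraries richest in pancreatic transcripts, one of each genotype, the fit gave 16 members lower in place of 19 and 7 Ugt genes lower in place of 8.

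Short motifs were counted in the promoters of all families. Of the 39 members 35 had a RefSeq window of 300 bases, and Gsta4, Gstt2, Ugt1a6b and Ugt3a2 had none. CCAAT, read on either strand like the other motifs, was in 11 of 15 Gst windows (73.3%), 3 of 11 Ugt windows (27.3%) and 37.4% of all windows. GTTAAT was in 5 of 11 Ugt windows (45.5%), among them Ugt1a1, Ugt1a6a and Ugt1a9, and in 1 of 15 Gst windows (6.67%). GCGTG, the core bound by AhR, was in 7 of 35 windows of members and 32.4% of all windows. TGACNNNGC, the core of the antioxidant element bound by NRF2, was in 8.57% and 12.4%. These shares are descriptions of the letters in the windows, and no test was made.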

How the data were processed

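Liver RNA was sequenced from TruSeq libraries, 3 WT and 3 Acss2-KO, per the labels' protocols. The submitters' processing notes list Bowtie 0.12.2 and mm8 without a role, and the counting of reads that match several genes is not stated there. The deposited expression values are log2 CPM with 2 decimals, with values under 1 CPM listed at 0. The authors' deposited table also holds their own log2 fold change, p-value and adjusted p-value per gene, from a tool not named in the labels. Deposited gene ends lie within 27 bases of the RefSeq GRCm38.p6 starts for the genes whose promoters are printed, so coordinates are taken as GRCm38.

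From these values CPM was computed as 2 to the power of the deposited value, a listed 0 becoming 1 CPM. Genes averaging 5 CPM or more (109 to 154 reads at the estimated depths) were fitted as log2(CPM + 1) by limma 3.58.1 under R 4.3.3 (statmod 1.5.0; moderated variances, robust and with a trend on the mean, no covariate), and adjusted p-values (Benjamini-Hochberg) below 0.05 were called. Fold changes on this scale understate those of low genes. Depth was estimated from the steps between low values; whole reads could not be recovered from 2 decimals, so no count model was used. Sums and ratios over libraries had exact permutation tests (scipy 1.17.1). Lengths per kb and shared 31-base words come from the longest and from all GENCODE vM1 transcripts. The procedure was tested on simulated data.

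The members and lists were chosen with earlier results of these data known. Values in each library are given for members called with an absolute log2 fold change of at least 1, for the 3 with the highest mean CPM in each family, and for neighbours with opposite estimates, and up to 3 genes with the smallest p are named from each pathway list; genes outside this rule are marked in the text as picked with their values known. Alternatives were pseudocounts of 0.5 and 5, no filter and a minimum of 20 CPM, 3 scalings, no trend, a threshold of 0.01, a replicate block, each library left out, and WT replicate 2 and Acss2-KO replicate 1 left out together. Comparison of protein sequences was not made.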

Additional observations from a re-analysis of the deposited data

How the results depend on the processing

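Of 21 called members 14 kept their call in every alternative they could be fitted in, and Gsta2, Gstm7, Gstz1, Mgst1, Sult1b1, Sult1d1 and Ugt3a2 lost it in at least 1. No called member changed sign. Members called lower numbered 13 to 26 over the alternatives, against 19, and 13 to 26 with 1 library left out. Over all tested genes, 1192 to 2381 were called lower with 1 library left out, against 2161. Members called higher, both Sult genes, numbered 1 in place of 2 with a minimum of 20 CPM and at a threshold of 0.01, and 1 to 2 with 1 library left out. Sult genes called lower numbered 1 at the threshold of 0.01 and 1 to 2 with 1 library left out. Gst genes called lower numbered 4 in place of 7 under each of the 3 scalings (median-of-ratios, upper-quartile, quantile) and at the threshold of 0.01, and 4 to 13 with 1 library left out. Mgst genes called lower numbered 1 in place of 2 with a minimum of 20 CPM (where Mgst3 was not tested), median-of-ratios or upper-quartile scaling, both WT replicate 2 and Acss2-KO replicate 1 left out, and at the threshold of 0.01, and 1 to 2 with 1 library left out. Apart from Mgst3 and the fits with fewer libraries, the cause was not tested. Family sums in Acss2-KO stayed below WT in all 10 alternatives run for them.

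Replicate numbers are shared by the genotypes, but same-numbered libraries did not deviate together (r = -0.102, -0.140 and 0.090), and 1 of the 3 Acss2-KO libraries, replicate 3, deviated most like its own number. With the replicate block 22 members were called lower in place of 19. Values near 1 CPM rest on 21.8 to 30.8 reads, which limits Sult1e1 and Sult1c2.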
